A study of Mus musculus with 16 samples.

Results

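The 10 genes described here mark the progenitor and stromal cells of fat, and were followed in subcutaneous (SAT) and visceral (VAT) adipose tissue of lean and obese mice. They were chosen by symbol: Pdgfra, Pdgfrb, Dpp4, Pi16, Cd55, Ly6a, Cd34, Icam1, Prrx1 and Clec11a, the symbols to which 36 of the 130343 transcript entries of the expression table map, 10 of 35569 gene symbols in all. The mice were wild-type C57BL/6J males. From 10 weeks of age, 4 obese mice received a high-fat diet with 42% of its energy from fat and 0.2% cholesterol, and 4 lean mice a normal laboratory diet, for 12 to 14 months. Inguinal SAT and mesenteric VAT were taken from every mouse, which gave 16 poly(A) RNA-seq libraries in 4 groups of 4 (lean SAT, obese SAT, lean VAT and obese VAT), and libraries with the same diet and replicate number came from 1 mouse.

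Adipose progenitors are fibroblast-like cells of the stroma and the vessel walls from which new adipocytes arise. They carry the platelet-derived growth factor receptors Pdgfra and Pdgfrb, the surface proteins Cd34 and Ly6a (Sca-1), and the homeobox factor Prrx1. In mouse inguinal fat, Dpp4, Pi16 and Cd55 mark early multipotent cells of the interstitium, whereas Icam1 marks progenitors committed to become adipocytes. Clec11a encodes osteolectin, a growth factor secreted by stromal cells. None of these genes is restricted to progenitors: Icam1 is an adhesion molecule of endothelium and leukocytes too, Cd34 is also found on endothelium, and Cd55 protects many cells from complement. In whole tissue, fewer cells of a type and less RNA per cell cannot be told apart, and no value below was assigned to a cell type.

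Total counts ranged from 1256082 to 16614407 a library, and the libraries with the fewest were lean VAT replicate 1 and obese VAT replicate 1 (2247737), in which 1 count stood for 0.796 and 0.445 CPM, the usual scaling of a count by the total of its library. Adipoq, a hormone secreted by adipocytes, stood at 6171 ± 943 CPM in lean VAT and 4017 ± 985 CPM in obese VAT (SD, n = 4). Levels are given as CPM scaled by the trimmed mean of M values (TMM), which corrects for library composition, and no level is compared between genes. The quasi-likelihood F-test of edgeR was run on 12185 gene sums, those for which 3 or more of the 16 libraries exceeded a CPM of 1. Called means an adjusted p below 0.05, after Benjamini-Hochberg correction over all of these sums. The median log2 fold change of all gene sums was -0.00 for diet in SAT, -0.02 for diet in VAT, and 0.02 for VAT against SAT in lean and in obese mice.

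The counts reached the 10 markers very unevenly. Reads were counted per transcript, and 13 of the 36 entries were at 0 in every library. Icam1 and Clec11a, with a single entry each, collected 8356 and 1138 counts over the 16 libraries. Pi16 had 13884 counts, 13877 of them on entry NM_023734, and Dpp4 had 11813, 95.9% of them on NM_010074. Cd34 had 5042 counts, all on NM_001111059, while its other entry was at 0. Cd55 (10789 counts) was shared mainly by 2 entries and Prrx1 (5838 counts) by 3.

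The 3 markers most used to sort these cells were almost uncounted. Pdgfra, the receptor that defines fibroblast-like progenitors, has 8 entries, which together held 186 counts, from 0 in lean VAT replicate 1 to 33 in obese VAT replicate 2. Pdgfrb, the mural and progenitor receptor, has 4 entries with 21 counts in all and at most 3 in a library. Ly6a has 6 entries and 13 counts, all on NM_001271416 and at most 5 in a library. Lean SAT had 0 Ly6a counts, which allows up to 0.252 to 0.652 CPM a library (3 counts, counting error only). Ly6a and Pdgfrb did not pass the filter and were not tested, and Pdgfra passed through VAT libraries alone. Among protein-coding genes the share tested was 44.0% with 1 entry, 45.0% with 2 to 3, 35.9% with 4 to 5 and 31.8% with 6 or more. How reads shared by several transcripts were counted is not given in the sources used here, so these low counts were not read as low expression.

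**Figure D1:**
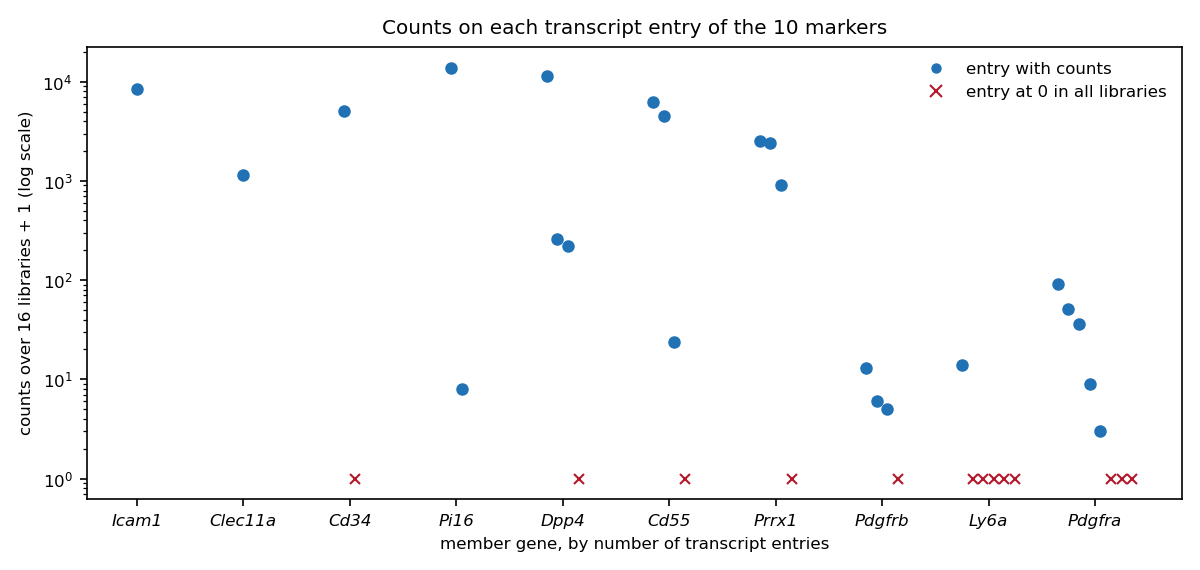
Each point is 1 transcript entry of a marker, and the y axis gives its counts over all 16 libraries plus 1 on a log scale. Icam1, Clec11a, Cd34, Pi16, Dpp4, Cd55 and Prrx1 each have an entry with at least 1138 counts, whereas no entry of Pdgfra exceeds 91, of Ly6a 13 or of Pdgfrb 12.

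The upstream sequences of the markers with the clearest differences, Icam1 for diet and Clec11a for depot, are shown as a description. Whether these sequences play a part in the differences was not tested. The bases come from RefSeq's promoter table (build GRCm38.p6), in which 8 of the 10 markers were used, and were placed on GRCm39, the build of the counts, by an exact match. In the 250 bases before the RefSeq start, 5 motifs were searched on both strands: the TATA box TATAAA, the CCAAT box, the Sp1-type box GGGCGG, the NF-kB-type site GGAANTTCC and the E-box CACGTG. Icam1 (chromosome 9, 20926672 to 20940113, plus strand) held a GGAANTTCC match 153 to 145 bases before the start, a motif found in 0.813% of 32851 promoters, and a GGGCGG match on the other strand, found in 32.7%. GENCODE vM39 places this stretch of Icam1 in an exon, as untranslated sequence. The 30 bases around the match are at chr9:20927073-20927102, plus strand, with the match in capitals.
Icam1: acttcagtttGGAAATTCCtagatcgcagg
Clec11a (chromosome 7, 43952111 to 43956377, minus strand) held a CCAAT match 24 to 20 bases and a GGGCGG match 17 to 12 bases before the start, the former found in 33.8% of promoters. Its 250 bases, at chr7:43956384-43956633 on the minus strand, overlap no annotated exon, and the matches are in capitals.
Clec11a: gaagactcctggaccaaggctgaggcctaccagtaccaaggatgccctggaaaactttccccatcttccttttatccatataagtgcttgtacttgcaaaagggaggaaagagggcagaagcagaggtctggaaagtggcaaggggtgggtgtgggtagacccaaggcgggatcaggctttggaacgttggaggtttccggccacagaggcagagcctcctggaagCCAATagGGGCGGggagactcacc
Among the other markers, Pi16 held a CCAAT match, Dpp4 a TATAAA match (found in 12.4% of promoters) and Cd55 a pair of GGGCGG matches. Prrx1, Cd34 and Pdgfra held none of the 5 motifs, and CACGTG (6.02% of promoters) was in none of the 8 markers. A match describes letters in this window, not a bound site.

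Whether the long-term high-fat diet changed these markers was asked within each tissue. Icam1 rose in obese mice in both SAT and VAT, and no other of the 8 tested markers passed the test as a gene sum. By direction, 1 of 8 was higher in SAT against 6.35% of all gene sums, and 1 of 8 was higher in VAT against 6.89%. None was lower by edgeR in either tissue (0 at an unadjusted p below 0.05), against 5.25% of gene sums in SAT and 5.28% in VAT. The median log2 fold change of the 8 markers was 0.12 in SAT and 0.39 in VAT.

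Icam1 stood at 27.2, 26.0, 20.7 and 25.6 CPM in lean SAT and at 41.1, 47.0, 45.0 and 42.9 CPM in obese SAT, so every obese library lay above every lean one. The increase was 1.77-fold (log2 fold change 0.82, SE 0.13, edgeR adjusted p = 0.000317). In VAT the levels were 64.6, 49.6, 47.1 and 46.5 CPM in lean mice and 70.8, 94.9, 92.0 and 97.4 CPM in obese mice, again without overlap. The increase was 1.75-fold (log2 fold change 0.81, SE 0.13, adjusted p = 0.000352). The lean VAT library at 64.6 CPM and the obese VAT library at 70.8 CPM were those with the fewest counts, with 97 and 186 on Icam1. Icam1 was called in all 15 alternative fits of each tissue, with log2 fold changes of 0.74 to 0.87 (SAT) and 0.79 to 0.92 (VAT). These sizes lie below the limit of 1.5 on the log2 scale that the study set for a differentially expressed gene.

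Macrophage markers rose with diet in both tissues, as Icam1 did, whereas no T cell or B cell marker was called in SAT by edgeR. The 9 macrophage markers summed to 1417 to 2032 CPM in lean SAT and 2285 to 3206 CPM in obese SAT, and to 2486 to 3223 CPM in lean VAT and 5399 to 7629 CPM in obese VAT. Of the 8 tested, 6 rose with diet in SAT and all 8 in VAT, with medians of 0.66 and 1.20 on the log2 scale. Cd68, a lysosomal protein of phagocytes, went from 37.7 ± 3.86 to 101 ± 12.9 CPM in SAT (log2 fold change 1.43, SE 0.18, adjusted p = 2.1e-05) and from 46.2 ± 4.04 to 230 ± 83.7 CPM in VAT (2.32, SE 0.18, adjusted p = 7.1e-08). The 7 T cell markers summed to 6.61 to 9.84 CPM in lean SAT, 8.38 to 21.5 in obese SAT, 21.2 to 45.9 in lean VAT and 62.4 to 104 in obese VAT. Of the 6 tested, 4 were called higher in VAT (Cd8a, Lck, Cd2 and Cd3g). Cd8a and Lck passed the filter only with the help of obese VAT, the group where they were high, so their place in this count is in part set by the filter. With a mouse left out the call was lost for Cd8a without lean replicate 2 or 4 or obese replicate 2 or 4, and for Lck without lean replicate 2 or 4 or obese replicate 4, with adjusted p up to 0.136 and 0.239. No T cell marker was called in SAT by edgeR (2 at an unadjusted p below 0.05; DESeq2 called 1 and limma voom 0). Among 9 endothelial markers tested, edgeR called 1 in SAT (4 at an unadjusted p below 0.05, 2 by DESeq2 and 1 by limma voom), Vwf, which rose from 5.06 ± 1.93 to 16.2 ± 3.08 CPM (log2 fold change 1.63, SE 0.25), and none was called in VAT (0 at an unadjusted p below 0.05, by DESeq2 and by limma voom). The part of these cells in the Icam1 difference was not tested.

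**Figure D2:**
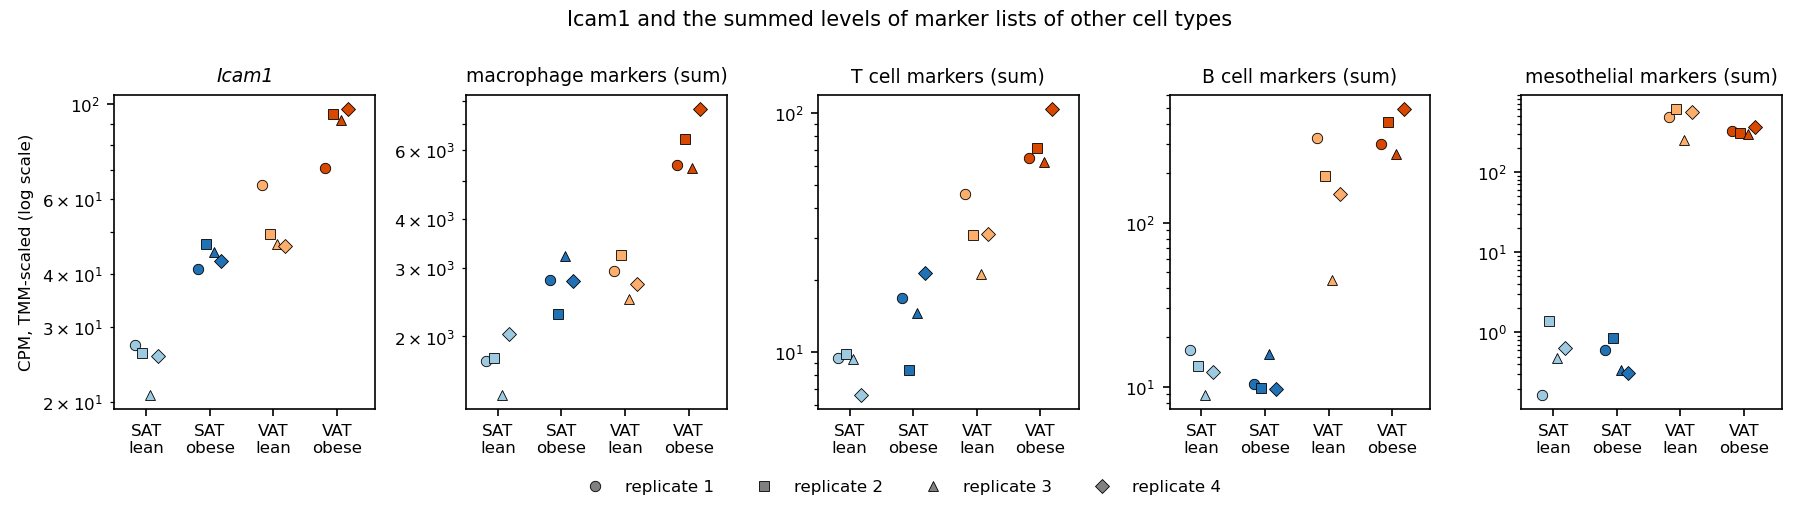
Icam1 and the summed levels of 4 marker lists are plotted per library on log axes in TMM-scaled CPM, with 1 symbol for each replicate number. Icam1 and the macrophage sum are higher in every obese library than in any lean library of the same tissue, whereas the mesothelial sum separates VAT (251 to 607 CPM) from SAT (0.166 to 1.41 CPM).

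Prrx1, a homeobox factor of the limb and trunk mesenchyme, missed the threshold narrowly in both tissues. In SAT it stood at 34.0, 35.6, 26.6 and 51.8 CPM in lean mice and at 53.6, 48.9, 53.2 and 50.4 CPM in obese mice, and lean replicate 4 alone reached into the obese range. The log2 fold change was 0.49 (SE 0.16, adjusted p = 0.052). In VAT the lean levels of 17.3, 24.5, 22.4 and 22.3 CPM all lay below the obese levels of 27.4, 37.7, 29.01 and 30.3 CPM, with a log2 fold change of 0.50 (SE 0.17, adjusted p = 0.0599). Without lean replicate 4, Prrx1 was called in SAT (0.67, adjusted p = 0.00893) and in VAT (0.52, adjusted p = 0.0482). It was also called in SAT by DESeq2 (adjusted p = 0.0284) and by limma voom (adjusted p = 0.0126), and in VAT by DESeq2 (adjusted p = 0.0373), and over all alternatives its adjusted p spanned 0.00893 to 0.205 (SAT) and 0.0373 to 0.181 (VAT).

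Prrx1 was also tested by transcript entry. Of 12 tested entries of the markers, 2 were called in SAT and 2 in VAT, the Icam1 entry and Prrx1 entry NM_175686, against 11.0% and 10.9% of the 13288 entries tested. NM_175686 stood at 5.19, 4.63, 4.27 and 6.57 CPM in lean SAT and at 12.6, 9.71, 9.70 and 7.38 CPM in obese SAT, with no overlap (log2 fold change 0.95, SE 0.27, adjusted p = 0.0266). In VAT it went from 2.55, 1.55, 2.67 and 2.31 CPM in lean mice to 4.20, 7.72, 2.86 and 3.24 CPM in obese mice, again with no overlap (1.08, SE 0.32, adjusted p = 0.0324). The other tested entries were not called: NM_001025570 differed by 0.25 (SE 0.18) in SAT and 0.43 (SE 0.19) in VAT, and XM_006496703 by 0.60 (SE 0.20) and 0.49 (SE 0.22). In SAT, XM_006496703 was called in 5 of 15 alternative fits, DESeq2 (adjusted p = 0.0304) and limma voom (0.0202) among them. Whether the entries differed from each other in their response was not tested. In SAT the share of Prrx1 counts on NM_175686 was 14.3% ± 1.71 in lean and 19.1% ± 3.57 in obese mice, and the ranges overlapped (12.8% to 16.2% and 14.8% to 23.3%). The call of NM_175686 in SAT was lost without lean replicate 1 (adjusted p = 0.0548), lean replicate 2 (0.0702), lean replicate 3 (0.0913) or obese replicate 1 (0.102). In VAT it was lost without lean replicate 2 (adjusted p = 0.164), lean replicate 4 (0.0778), obese replicate 1 (0.0516) or obese replicate 2 (0.304, with the log2 fold change at 0.57), the library at 7.72 CPM. It was also lost by limma voom (0.0517) and when VAT libraries were fitted alone (0.101).

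**Figure D3:**
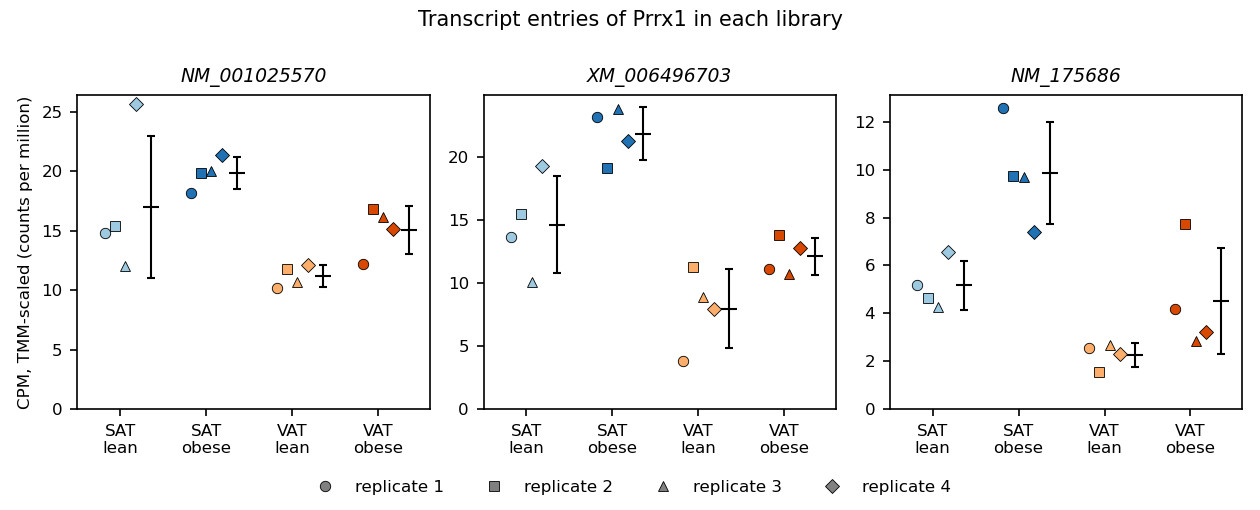
The 3 counted transcript entries of Prrx1 are plotted per library in TMM-scaled CPM, with a bar for the mean ± SD of 4 mice beside each group. For NM_175686 all 4 obese libraries lie above the 4 lean ones in each tissue, whereas for XM_006496703 the groups overlap in both tissues.

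The remaining 6 markers were not called for diet in either tissue. Dpp4, a dipeptidyl peptidase, stood at 51.02, 66.9, 31.8 and 112 CPM in lean SAT and 51.2, 40.7, 64.1 and 66.2 CPM in obese SAT, a log2 difference of -0.22 with a 95% interval from -0.77 to 0.33. Pi16, a secreted protein of universal fibroblasts, stood at 93.1, 120, 47.8 and 268 CPM in lean SAT and at 129.7, 108, 113.5 and 142 CPM in obese SAT (-0.09, interval -0.71 to 0.53). Lean SAT replicate 4 was the highest lean SAT library for 6 of the 8 markers and had the fewest counts of its group (4604460). Without that mouse the SAT difference of Dpp4 was 0.15 and that of Pi16 0.49, neither called.

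In VAT the spread of Pi16 was smaller. Its levels of 50.6, 45.2, 35.2 and 48.3 CPM in lean mice all lay below the 63.2, 54.7, 57.7 and 73.3 CPM of obese mice, yet the difference of 0.49 (interval -0.16 to 1.13, adjusted p = 0.368) was not called. The 4 groups share an estimate of the spread in this fit, so the interval also reflects the spread of Pi16 in SAT. Over 15 alternative fits the adjusted p of Pi16 in VAT spanned 0.0504 to 0.574, with 0 calls. Dpp4 differed by -0.07 in VAT (interval -0.62 to 0.48). Cd34, a sialomucin of progenitors and endothelium, differed by 0.12 in SAT (interval -0.32 to 0.55) and 0.00 in VAT (-0.43 to 0.43). Cd55 differed by 0.13 (-0.30 to 0.55) and 0.29 (-0.14 to 0.72). Clec11a differed by -0.00 in SAT (-0.56 to 0.55) and 0.31 in VAT (-0.14 to 0.76). For Pdgfra, with 2 to 14 counts a library in SAT, the intervals were -0.87 to 1.27 (SAT) and -0.51 to 1.45 (VAT), so a log2 difference of 1 in either tissue lies within them.

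**Figure D4:**
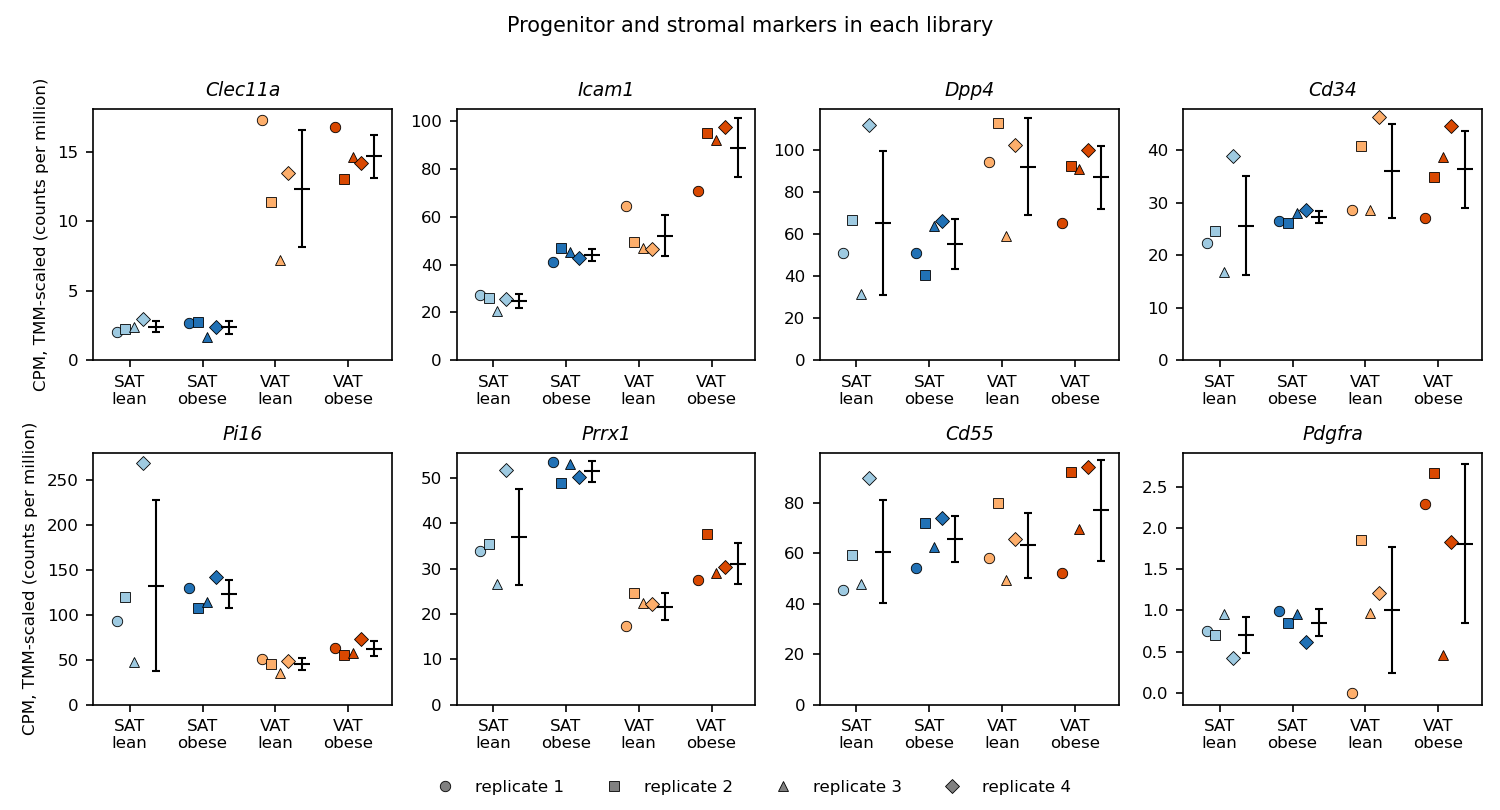
The 8 tested markers are plotted per library in TMM-scaled CPM, with 1 symbol for each replicate number and a bar for the mean ± SD of 4 mice beside each group. Clec11a and Icam1 are higher in every VAT library than in any SAT library of the same diet, Prrx1 is lower in every VAT library, and lean SAT replicate 4 (diamond) is the highest of its group for 6 markers.

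The tissues of the same mice were then compared, in a fit that blocks on the mouse. With the block 6 of 8 markers were called in each diet group, and 4 of 8 without it, the form of the diet fits. Clec11a, Icam1, Dpp4 and Cd34 were higher in VAT and Pi16 and Prrx1 lower, in lean and in obese mice alike. Of the 8 markers, 4 were higher in lean mice against 8.67% of all gene sums and 2 lower against 7.22%. In obese mice the same 4 were higher against 16.3% and the same 2 lower against 15.1%. The median log2 difference of the markers was 0.57 in lean and 0.53 in obese mice. The diet comparisons used the same libraries.

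Clec11a differed most. It stood at 2.08, 2.25, 2.39 and 2.98 CPM in SAT of lean mice (14 to 25 counts a library) and at 17.3, 11.4, 7.21 and 13.5 CPM in their VAT, a 4.80-fold difference (log2 2.26, SE 0.25, adjusted p = 1.55e-06). In obese mice the SAT levels were 2.67, 2.76, 1.71 and 2.40 CPM and the VAT levels 16.8, 13.1, 14.6 and 14.2 CPM, a 6.20-fold difference (log2 2.63, SE 0.23, adjusted p = 4.32e-08). The tissues did not overlap, and Clec11a was the only marker whose difference exceeded 1.5 on the log2 scale.

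Icam1 was 2.08-fold higher in VAT of lean mice (log2 1.05, SE 0.13, adjusted p = 3.31e-06) and 2.01-fold higher in VAT of obese mice (log2 1.01, SE 0.12, adjusted p = 1.64e-06). Of its 4 group means, 24.9 ± 2.84 CPM in lean SAT was the lowest and 88.8 ± 12.2 CPM in obese VAT the highest, and obese SAT (44.0 ± 2.56 CPM) overlapped with lean VAT (51.9 ± 8.54 CPM). Clec11a and Icam1 were called in all 14 alternative fits of each depot comparison.

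Pi16 and Prrx1 went the other way. Pi16 was lower in VAT than in SAT of every mouse, by 2.52-fold in lean mice (log2 -1.33, SE 0.21, adjusted p = 9.19e-05) and 1.98-fold in obese mice (log2 -0.98, SE 0.19, adjusted p = 0.000574). Lean SAT replicate 3 at 47.8 CPM lay within the lean VAT range, whereas in obese mice the tissues did not overlap. Prrx1 was lower in every VAT library than in any SAT library of the same diet, 1.64-fold in lean mice (log2 -0.72, SE 0.16, adjusted p = 0.00377) and 1.65-fold in obese mice (log2 -0.73, SE 0.15, adjusted p = 0.000977). Both were called in all 14 alternative fits of each comparison.

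By entry, 8 of the 12 tested were called between tissues in lean mice (14.8% of all entries tested) and 7 of 12 in obese mice (29.4%). All 3 entries of Prrx1 were lower in lean VAT, with NM_175686 at -1.21 (SE 0.30, adjusted p = 0.00685), XM_006496703 at -0.77 (SE 0.22, adjusted p = 0.0181) and NM_001025570 at -0.55 (SE 0.18, adjusted p = 0.0445). In obese mice NM_175686 (-1.15, SE 0.25) and XM_006496703 (-0.84, SE 0.20) were called and NM_001025570 (-0.39, SE 0.17, adjusted p = 0.0851) was not. The lean call of NM_001025570 was lost when any of lean replicates 1, 2 and 4 or obese replicates 2, 3 and 4 was left out (highest adjusted p 0.329, without lean replicate 4), without a filter on low counts (0.172), by limma voom (0.0757) and without the block (0.0601). In lean mice XM_006496703 was not called without lean replicate 1 (adjusted p = 0.0666) or 4 (0.144), nor NM_175686 without lean replicate 2 (0.0604).

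The interstitial marker Dpp4 did not go with Pi16. It stood at 94.6, 112.9, 59.2 and 102.4 CPM in lean VAT, above the SAT level of the same mouse in 3 of 4 mice, a log2 difference of 0.59 (SE 0.16, adjusted p = 0.0134). In obese VAT it stood at 65.5, 92.4, 90.9 and 99.97 CPM, above SAT in 4 of 4 mice (0.66, SE 0.16, adjusted p = 0.00278). The lean call was lost without lean replicate 1 (adjusted p = 0.072), 2 (0.0838) or 3 (0.11), by limma voom (0.0508) and without the mouse as a block (0.23), which also ended the obese call (0.0648).

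Cd34 was higher in VAT than in SAT in 4 of 4 lean and 4 of 4 obese mice. It went from 22.3, 24.6, 16.7 and 38.8 CPM in SAT to 28.6, 40.8, 28.5 and 46.3 CPM in VAT of lean mice (log2 0.54, SE 0.15, adjusted p = 0.0137), and from 26.5, 26.1, 28.1 and 28.5 to 27.0, 34.9, 38.6 and 44.6 CPM in obese mice (0.41, SE 0.14, adjusted p = 0.032). The lean call was lost without lean replicate 2 (adjusted p = 0.108) or 3 (0.127), and the obese call without obese replicate 2 (0.0717), 3 (0.0867) or 4 (0.152) and without a filter on low counts (0.167). Without the block neither was called (0.0912 and 0.121).

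Cd55 and Pdgfra were not called between the tissues. Cd55 stood at 45.4, 59.3, 47.9 and 90.0 CPM in lean SAT and at 57.9, 79.9, 49.5 and 65.5 CPM in lean VAT, a difference of 0.08 (interval -0.21 to 0.37), and the obese difference was 0.21 (-0.07 to 0.49). Mice have a close copy of the gene, Cd55b, and an exon of Gm16083 overlaps its start, and reads shared with either were not measured, so the counts of Cd55 are uncertain. Pdgfra differed by 0.60 in lean mice (-0.65 to 1.85) and by 0.92 in obese mice (-0.16 to 1.99, adjusted p = 0.192). Pdgfra passed the filter only because it was above the minimum in VAT, so its depot values are a description. Leaving out obese replicate 3, the lowest obese VAT library with 5 counts, moved the obese difference to 1.502 (adjusted p = 0.0481), from which nothing was read for the same reason.

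**Figure D5:**
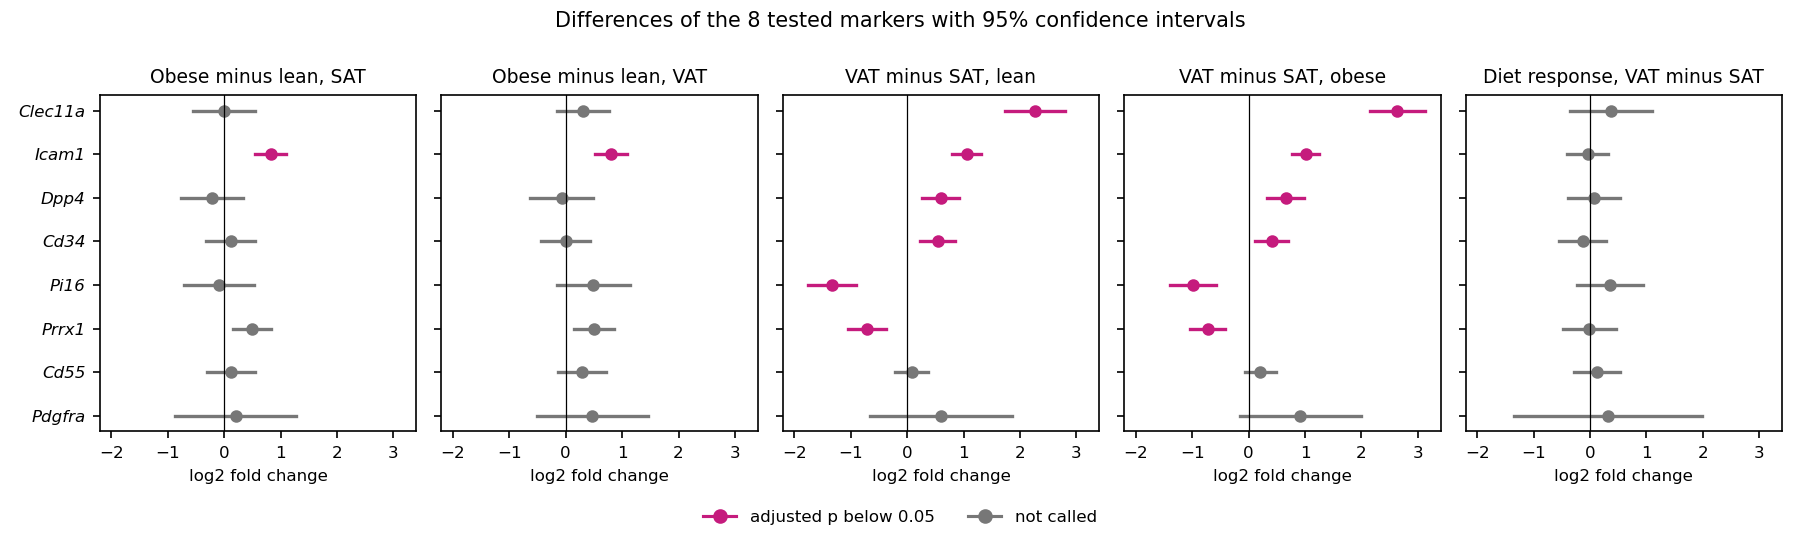
Log2 fold changes of the 8 tested markers are plotted with 95% confidence intervals for the diet comparisons, the depot comparisons and the difference of the diet response between the tissues, with called genes in magenta. Icam1 is the only gene called for diet, 6 genes are called in each depot comparison, and none is called in the last panel.

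The diet response of the markers was then compared between VAT and SAT of the same mice. None of the 8 differed by edgeR (0 at an unadjusted p below 0.05, 0 by DESeq2 and 0 by limma voom), against 2.47% of gene sums called in either direction. The differences in log2 fold change were -0.04 for Icam1 (interval -0.40 to 0.31), 0.37 for Clec11a (-0.36 to 1.10), 0.35 for Pi16 (-0.24 to 0.93) and -0.01 for Prrx1 (-0.48 to 0.46). For Cd34, Cd55 and Dpp4 they were -0.13 (-0.55 to 0.29), 0.13 (-0.28 to 0.53) and 0.07 (-0.40 to 0.54), and for Pdgfra the interval ran from -1.35 to 1.98.

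Other cells also separate the tissues. The mesothelium lines the peritoneum, and 6 of its 8 markers passed the filter. They did so through VAT, meaning that fewer than 3 SAT libraries were above 1 CPM, with means of at most 0.3998 CPM in SAT (Lrrn4 in lean mice), so their higher level in VAT in lean and obese mice (6 of 6 called) is in part set by the filter. Wt1, a mesothelial transcription factor, was at 0 in all 8 SAT libraries and at 101 ± 31.0 CPM in lean VAT, at least 1256-fold higher (from 3 counts over the group). Msln and Upk1b were also at 0 in all SAT libraries, and Bnc1 and Muc16 did not pass the filter. Of 8 B cell markers, 7 were called higher in lean VAT and 8 in obese VAT. Among them, Cd22 and Cd79b passed the filter through VAT, which in part sets the count, and Cd22 lost its lean call without lean replicate 1 (adjusted p = 0.234) or 2 (0.0949). The summed level of the list went from 8.89 to 16.7 CPM in lean SAT to 45.0 to 330 CPM in lean VAT, and from 9.68 to 15.9 CPM in obese SAT to 263 to 493 CPM in obese VAT. With diet, edgeR called 3 B cell markers higher in VAT (Cd79b, Pax5 and Cd79a), DESeq2 1 and limma voom 6. The calls of Cd79a and Cd79b were lost in several fits with a mouse left out, both of them without obese replicate 2 or 4 (adjusted p up to 0.0804 and 0.0996), and none was called in SAT by edgeR (0 at an unadjusted p below 0.05, by DESeq2 and by limma voom). No mesothelial marker was called for diet by edgeR, DESeq2 or limma voom (0 at an unadjusted p below 0.05 in SAT and 2 in VAT). T cell markers were called higher in VAT for 2 of 6 tested in lean and 6 of 6 in obese mice, but 4 of the 6 (Cd3e, Cd5, Cd8a and Lck) passed the filter through VAT, which in part sets this count. Macrophage markers, which all passed in both tissues, were higher in VAT for 5 of 8 and 8 of 8. The part of these cells in the depot differences of Clec11a, Icam1, Dpp4 and Cd34 was not tested.

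Lists of related stromal genes were described by their counts. Of 9 further genes of interstitial progenitors tested, none was called for diet by edgeR in SAT (1 at an unadjusted p below 0.05) or VAT (2), nor by DESeq2 or limma voom, with a median of 0.15 on the log2 scale in each. Between tissues, 3 were higher in VAT of lean mice and 1 lower, and 5 higher and 2 lower in obese mice, with medians of 0.38 and 0.56. Cd248, a glycoprotein of stromal cells, was 97.6 ± 44.3 CPM in SAT and 199 ± 40.1 CPM in VAT of lean mice (log2 1.11, SE 0.17, adjusted p = 7.8e-05). Smpd3, a sphingomyelinase, was higher by 1.66 in lean and 1.97 in obese mice, but passed the filter through VAT, and its lean call was lost without lean replicate 2 (adjusted p = 0.0992) or 3 (0.082). Sema3c, a secreted semaphorin, was 525 ± 77.3 CPM in SAT and 312 ± 32.2 CPM in VAT of obese mice (log2 -0.75, SE 0.13). Wnt2 rested on 2 counts in lean and 1 in obese VAT, against 20 and 66 in SAT, and passed the filter through SAT. The lean call of Wnt2 was lost without lean replicate 1, 3 or 4 (adjusted p up to 0.168), and that of Fbn1 without lean replicate 3 (0.068).

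Of 5 committed preadipocyte genes tested besides Icam1, none was called for diet by edgeR (1 at an unadjusted p below 0.05 in each tissue, 0 by DESeq2 and limma voom), with medians of 0.23 in SAT and 0.62 in VAT. Between tissues 2 were lower in VAT in lean and obese mice, the basement membrane collagens Col4a2 (log2 -0.61, SE 0.10 and -0.82, SE 0.10) and Col15a1 (-0.49, SE 0.12 and -0.48, SE 0.12), and the medians were -0.49 and -0.48. The call of Col15a1 was lost without lean replicate 1 in lean mice (adjusted p = 0.0748) and without obese replicate 1 (0.0805) or 2 (0.0534) in obese mice, and without the block the lean calls of Col15a1 (0.0684) and Col4a2 (0.0735) were lost. Of 5 genes of adipogenesis-regulatory cells tested, Mgp was the 1 called for diet in VAT by edgeR, DESeq2 and limma voom (log2 0.94, SE 0.19, adjusted p = 0.0025), and none was called in SAT by edgeR (1 at an unadjusted p below 0.05, 0 by DESeq2 and limma voom). Mgp, an inhibitor of calcification, was 31.5 ± 5.14 CPM in SAT and 110 ± 15.1 CPM in VAT of lean mice, and 30.5 ± 3.75 and 213 ± 85.3 CPM in obese mice. Gdf10, a BMP-family ligand, was higher in VAT by 1.61 (SE 0.18) and 1.57 (SE 0.17), and Meox2, a homeobox factor, lower by -0.43 and -0.76. The lean call of Meox2 was lost by limma voom (adjusted p = 0.131), without the block (0.156), without a filter (0.107) and without lean replicate 1 (0.261), 2 (0.154) or 3 (0.056) or obese replicate 2 (0.0524). In all, 4 of the 5 were higher and 1 lower in lean VAT (median 0.95), and 3 and 1 in obese VAT (median 0.77).

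Of 14 general fibroblast genes tested, edgeR called Bgn higher with diet in SAT, and Thy1 and Serpinf1 in VAT (medians 0.07 and 0.16). The call of Bgn was lost without lean replicate 2 (adjusted p = 0.0609) or 3 (0.0527) or obese replicate 1 (0.0515), that of Thy1 without obese replicate 4 (0.0578), and that of Serpinf1 in 6 of 8 fits with a mouse left out, all but lean replicate 4 and obese replicate 1 (adjusted p up to 0.128). Between tissues, 2 were higher and 4 lower in lean VAT (median -0.26) and 2 and 3 in obese VAT (median -0.14). Tcf21, a transcription factor of visceral progenitors, was at 0 counts in all SAT libraries and at 7.69 ± 1.25 CPM in lean VAT, at least 87.6-fold higher, and at 7.94 ± 2.38 CPM in obese VAT, at least 151-fold higher (from 3 counts over the group). Tcf21 passed the filter through VAT alone, which sets its place among the 2 higher genes, the other being Dcn. Col1a1 lost its obese call without obese replicate 2 (adjusted p = 0.0938) or 3 (0.0546) and without the block (0.107). Dcn, the matrix proteoglycan decorin, was 267 ± 40.5 CPM in SAT and 596 ± 85.4 CPM in VAT of lean mice (log2 1.16, SE 0.10, adjusted p = 4.2e-08). Fap, a protease related to Dpp4, went the other way, from 77.0 ± 16.3 to 28.1 ± 3.21 CPM (log2 -1.44, SE 0.13), and Serpinf1 from 667 ± 147 to 292 ± 98.9 CPM (log2 -1.22, SE 0.11). Summed over the 15 genes, the list stood at 6500 to 10483 CPM in lean SAT and 5224 to 7497 CPM in lean VAT.

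Of the ligands, binding partners and paralogs of the markers, 6 of 15 were tested. Podxl, a sialomucin related to Cd34, rose with diet in SAT from 209 ± 56.3 to 339 ± 45.2 CPM (log2 0.70, SE 0.15, adjusted p = 0.0047) and was higher in VAT of lean mice (0.90, SE 0.14). None was called for diet in VAT by edgeR (2 at an unadjusted p below 0.05, 1 by DESeq2 and 1 by limma voom). In obese mice Itgam, a subunit of the Icam1 receptor Mac-1, was higher in VAT by 2.21 (SE 0.47), from 0.643 ± 0.383 to 2.93 ± 1.19 CPM, and Itga11 by 2.13 (SE 0.67). Both passed the filter through VAT, and Itga11 lost its call without obese replicate 2 (adjusted p = 0.0875) or 4 (0.057).

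Of 6 mural cell markers tested, Cspg4 was called higher with diet in SAT (log2 0.91, SE 0.28), but not without lean replicate 1, 2 or 3 or obese replicate 1 or 2 (adjusted p up to 0.169), and none was called in VAT by edgeR (3 at an unadjusted p below 0.05, 0 by DESeq2, 1 by limma voom). Between tissues Rgs5, a pericyte gene, was lower in VAT (log2 -1.15, SE 0.12 in lean and -1.11, SE 0.12 in obese mice), Des higher in both, and Cspg4 higher in lean mice. Endothelial markers had 1 higher of 9 in lean VAT, and 1 higher (Egfl7) and 3 lower (Erg, Cldn5 and Kdr) in obese VAT. With a mouse left out, the obese call was lost for Egfl7 without obese replicate 1, 3 or 4 (adjusted p up to 0.15), for Kdr without obese replicate 1, 2 or 3 (up to 0.198) and for Erg without obese replicate 2 (0.0575). Of 7 adipocyte markers tested, 1 fell with diet in SAT and 4 in VAT, with Adrb3, the beta-3 adrenergic receptor, at -1.14 (SE 0.26) and -1.003 (SE 0.26). In VAT the call of Adrb3 was lost without lean replicate 3 (adjusted p = 0.0659) or obese replicate 4 (0.0513), and that of Adipoq without lean replicate 3 (0.0783). Adrb3 was higher in VAT in lean and obese mice, and Lipe, Plin1 and Adipoq were lower in VAT of obese mice. The depot call of Adipoq was lost without the block (adjusted p = 0.108) and without obese replicate 1 (0.208, with the log2 difference at -0.21 in place of -0.36) or 4 (0.12).

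Of 98 list genes tested, edgeR called 9 for a difference between the tissues in their diet response (DESeq2 12, limma voom 4), beside 2.47% of all gene sums. By edgeR the log2 fold change was lower in VAT than in SAT for Podxl, Cspg4, Vwf, Cldn5, Plin1 and Lipe, and higher in VAT for C1qb, Blk and Pax5.

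Markers of gut, pancreas and muscle were measured as other tissues that could adhere to the samples. The 9 intestinal epithelium markers summed to 12.2 to 24.0 CPM in SAT and 13.4 to 52.9 CPM in VAT, and edgeR called 2 of 6 lower in obese than in lean VAT (DESeq2 1, limma voom 1), Zg16 on 6 against 135 counts and Slc5a1 on 4 against 65. Both passed the filter through lean VAT alone, the group where they were high, so this count is set in part by the filter. Slc5a1 lost this call without obese replicate 2 (adjusted p = 0.0913), 3 (0.0725) or 4 (0.08). Between tissues 3 of 6 were called higher in lean VAT (Epcam, Slc5a1 and Zg16), all 3 of which passed the filter through VAT, and 1 higher (Epcam) and 1 lower (Krt20) in obese VAT. Epcam lost its lean call without lean replicate 2 (adjusted p = 0.0709), and Krt20, which passed through SAT, lost its call in 10 of 14 alternative fits. None was called for diet in SAT by edgeR (1 at an unadjusted p below 0.05), DESeq2 or limma voom. The 7 exocrine pancreas markers summed to at most 0.821 CPM in SAT and 14.0 CPM in VAT, and the 5 skeletal muscle markers to at most 1.91 CPM in any library. Both pancreas markers tested passed the filter through VAT, which in part sets what follows. Of 2 tested, edgeR called 2 higher in lean VAT (Pnlip and Cpa1, DESeq2 1 and limma voom 2), Cpa1 not without lean replicate 3 (adjusted p = 0.0881). In obese VAT it called Pnlip, on 15 counts, but not without obese replicate 4 (adjusted p = 0.343), and DESeq2 and limma voom called 0, with none called for diet and 0 at an unadjusted p below 0.05. The 1 muscle marker tested was called in no comparison.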

How the data were processed

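The authors trimmed the reads (Trim Galore 0.6.6), aligned them to GRCm39 (HISAT2 2.2.0) and counted them per RefSeq transcript (HTSeq 0.13.5). The deposited table holds raw counts and CPM for 16 libraries, and the CPM are the counts over each column total, without TMM. How HTSeq treated ambiguous reads and strand is not given in the sources used here. Libraries were prepared from poly(A) RNA with a directional kit.

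Entries were assigned symbols by RefSeq identifier (82.0% of entries, 98.9% of counts), and counts were summed per symbol; entries without a symbol stayed alone. Coordinates came from GENCODE vM39 (GRCm39). The F-test of edgeR 4.0.16 (R 4.3.3), in its legacy quasi-likelihood form on TMM-scaled counts, was fitted to all 16 libraries, over features with a CPM above 1 in at least 3. Depot comparisons had the mouse as a block, since SAT and VAT of a number came from 1 mouse. Deviations from group means correlated at -0.02 to 0.22 (median 0.11) in the 8 pairs from 1 mouse and at -0.21 to 0.17 (median -0.05) in 24 pairs from different mice. In 8 pairs of lean and obese libraries of a tissue that share only a replicate number, the median was 0.08. Intervals are 95% from the fitted spread (biological coefficient of variation 0.205), and counting limits cover counting error only. No 2 libraries of a group agreed within counting noise (lowest chi-square per degree of freedom 5.44).

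Alternatives were RLE size factors, no filter, filterByExpr, DESeq2 1.42.0, limma 3.58.1 voom with a random effect for mouse, the 8 libraries of 1 tissue, replicate blocks, and each mouse left out. Members, gene lists and tests were chosen with earlier results of these data known. By plan, the named genes were all members and, from each list, up to 3 called genes a direction with the largest log2 fold change. The 5 gene sums most correlated with Pi16 and Pdgfra on log2(CPM + 0.5) were also named. Some genes within this rule, such as Upk3b, were left unnamed. Further list genes were named after their values were seen, also in lists with many calls. Motif shares are of RefSeq promoters.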

Additional observations from a re-analysis of the deposited data

Results flagged for a closer look

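Of 80 groups of 4 libraries, over 8 marker genes and 12 transcript entries, 3 had a library whose gap to its nearest neighbour, as a share of the group's range, exceeded Dixon's critical value for 4 samples. Chance flags about 1 in 20 such groups. Icam1 in lean VAT replicate 1 stood at 64.59 CPM (gap 0.831 of the range), against 46.53 to 49.57 CPM in the other 3 libraries, and this library had the fewest counts of all. Cd55 entry NM_010016 in lean SAT replicate 4 stood at 52.77 CPM (0.835), against 25.52 to 30.01 CPM. Dpp4 entry NM_001159543 in the same library stood at 4.874 CPM (0.906), against 0.5763 to 0.9816 CPM.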

How the results depend on the processing

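No result called in either fit changed direction under an alternative: of 748 marker values, 660 kept direction and call, 36 lost the call, 15 gained it and 37, none called, changed sign. Icam1 and Prrx1 made 2 calls in place of 1 for diet in SAT under RLE size factors, DESeq2, limma voom, no filter on low counts and the replicate block, and for diet in VAT under RLE size factors and DESeq2. With 1 mouse left out the calls ranged from 1 to 2 in each tissue, and over entries from 1 to 3 in SAT, 1 to 2 in VAT and 4 to 8 for depot in lean mice. Entries called for diet in VAT were 1 by limma voom, and for depot in lean mice 5 without the replicate block. Lean and obese mice share only a number (correlations -0.12 to 0.21, median 0.08), and their pairing by number, as a replicate block, left 1 gene called in VAT. Signs turned for Cd34 in VAT without a filter (-0.01734), for Clec11a in SAT by DESeq2 (0.004835), with RLE (0.00348) and without a filter (0.03631), and for Pi16 in SAT by limma voom (0.2554) and with the replicate block (0.06796). The depot difference of the diet response turned for Icam1 by limma voom (0.03242), and for Prrx1 by DESeq2 (0.001551), RLE (0.0007891), filterByExpr (0.02514) and without the replicate block (0.00705). With 1 mouse left out the diet values in SAT ranged from -0.04717 to 0.3534 for Cd34, -0.08594 to 0.1328 for Clec11a, -0.4514 to 0.1463 for Dpp4 and -0.3725 to 0.4911 for Pi16. In VAT they ranged from -0.08958 to 0.1704 for Cd34 and -0.206 to 0.0763 for Dpp4, and the depot value of Cd55 in lean mice from -0.05121 to 0.2606. The depot differences of the diet response ranged from -0.1933 to 0.01686 for Cd34, -0.01996 to 0.2912 for Cd55, -0.1383 to 0.2089 for Dpp4, -0.07444 to 0.06967 for Icam1, -0.01939 to 0.689 for Pi16 and -0.1533 to 0.2004 for Prrx1. The cause was not tested. Over the whole table, 301 genes were called for this difference, 139 without the replicate block and as few as 135 with a mouse left out (without obese replicate 4). Leaving out 1 mouse also took the genes called from 1414 to 926 for diet in SAT (lean replicate 2), 1482 to 847 for diet in VAT (obese replicate 4), 1937 to 1276 for depot in lean mice (lean replicate 3) and 3820 to 2490 in obese mice (obese replicate 4). Entries called for the difference were 289, with 462 by DESeq2, 128 without the replicate block, and 187, 152 and 135 without lean replicate 2, lean replicate 3 and obese replicate 4. Entries called went from 1468 to 936 for diet in SAT (without lean replicate 2), 1451 to 834 for diet in VAT and 3905 to 2550 for depot in obese mice (both without obese replicate 4). Of the named list genes' values, 1360 kept their call and 100 lost it. Few counts limit Pdgfra, Pdgfrb and Ly6a also in the deepest library (14, 3 and 3 counts), and depth limits the 2 shallowest VAT libraries.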

Other observations

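Across the 16 libraries, the gene sums whose log2 levels were most like those of Pi16 were Gm35706 (Pearson r = 0.869), Slco3a1 (0.867), Tmem100 (0.861), Tmem28 (0.857) and 2610020C07Rik (0.845). For Pdgfra, which had few counts, they were Jmjd4 (0.874), 1700110C19Rik (0.856), Sdr42e1 (0.848), 4930431P03Rik (0.830) and Tnfrsf4 (0.824). These values are a description: the libraries share mice and fall into 4 groups.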
